A study of Mus musculus with 17 samples.

Results

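The complement genes described here are C1qa, C1qb, C1qc, C3, C3ar1, C5ar1 and Cfp, 7 of the 41388 gene identifiers counted in 17 RNA-seq libraries of mouse macrophages and osteoclast precursors. They were chosen by symbol, with no measured value in the rule, and each symbol matched a single identifier. C1qa, C1qb and C1qc encode the A, B and C chains of C1q, the molecule that recognises antibody and dying cells and starts the classical pathway. C3 encodes the central component, whose cleavage gives C3b, which is deposited on targets, and the small peptide C3a. C3ar1 and C5ar1 encode the receptors for C3a and for C5a, its counterpart from C5. Cfp encodes properdin, which stabilises the alternative pathway convertase. Most complement proteins in plasma come from the liver, but macrophages make C1q and properdin themselves, and both C3a and C5a are known to act on osteoclast formation in culture.

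The libraries came from bone marrow macrophages (BMMs), grown from marrow with M-CSF, and from preosteoclasts (preOCs, labelled OC), the same kind of culture after 24 h in RANKL at 100 ng/ml, the cytokine that turns macrophages into osteoclasts. Bap1flox mice carry loxP sites in both copies of Bap1, a deubiquitinase gene, and have no Cre. Bap1LysM mice carry the same floxed alleles and Cre in the lysozyme M locus, Lyz2, which is active in myeloid cells. There were 3 Bap1flox and 3 Bap1LysM BMM libraries, 6 Bap1flox preOC libraries and 5 Bap1LysM preOC libraries, numbered 1, 2, 4, 5 and 6. The preOC mice were 20-week-old males per a figure legend of the study, and the age of the BMM mice is not given in the sources used here. The preOC libraries are described as independent samples, and nothing says this of the BMM libraries, so p-values there measure only the spread between these libraries. The comparisons ask how loss of Bap1 in myeloid cells changes expression in each culture, and how RANKL changes it in each genotype.

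Counts per library summed to 37967542 to 61369441, and no member had fewer than 2527 reads in any library, so the spread between libraries and not counting limits the values. Osteoclast markers, 10 genes including Acp5 and Ctsk, summed to 241 to 386 CPM in BMMs and to 6065 to 16378 CPM in preOCs, and all 11 macrophage markers were detected in every group. Libraries numbered 1 to 3 and 4 to 6 carry different forms of name, and mitochondrial genes took 0.481% to 1.074% of the counts in the former and 2.364% to 5.264% in the latter. These library sets are therefore also given apart for preOCs. Bap1 itself ran at 71.6% to 99.7% of the Bap1flox mean in Bap1LysM preOCs (log2 fold change -0.22, edgeR adjusted p = 0.182) and at 90.9% to 98.6% in BMMs (-0.11, adjusted p = 0.344), but counts over a whole gene do not separate the floxed exons. Lyz2, the Cre locus, was at 0.149% to 0.485% of the Bap1flox mean in Bap1LysM preOCs 2, 4, 5 and 6 but at 80.6% in the library labelled Bap1LysM OC 1, and at 0.170% and 0.148% in Bap1LysM BMMs 2 and 3 but at 45.7% in the library labelled Bap1LysM BMM 1. Both libraries numbered 1 of the Bap1LysM genotype thus stand apart at the Cre locus, and the genotype differences of the complement genes named in preOCs are given with and without the preOC library.

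C3 rose and the other 6 members fell when Bap1flox BMMs became preOCs, and the upstream sequences of C3 and of C1qb are shown because these genes moved in opposite directions. Both are the 250 bases before the RefSeq start on GRCm38.p6, read 5′ to 3′ on the minus strand, at chr17:57228137-57228386 for C3 and chr4:136886201-136886450 for C1qb. Capitals mark matches on either strand to TGCTGA (a MAF motif), GAGGAA (PU.1), TTNNGNAA (C/EBP), TGANTCA (AP-1) and TTTCCA (NFAT).
C3: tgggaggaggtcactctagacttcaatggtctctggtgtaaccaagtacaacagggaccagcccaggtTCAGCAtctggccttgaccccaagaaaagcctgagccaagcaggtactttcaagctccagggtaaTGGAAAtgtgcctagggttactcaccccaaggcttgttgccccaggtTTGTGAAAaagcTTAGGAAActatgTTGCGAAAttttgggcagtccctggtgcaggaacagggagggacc
C1qb: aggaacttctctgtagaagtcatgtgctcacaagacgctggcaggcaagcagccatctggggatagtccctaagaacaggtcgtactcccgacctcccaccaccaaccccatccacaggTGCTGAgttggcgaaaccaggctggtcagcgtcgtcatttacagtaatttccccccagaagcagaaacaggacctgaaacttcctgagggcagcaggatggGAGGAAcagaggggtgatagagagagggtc
The C3 window held 3 places that match the C/EBP letters, the nearest of them TTGCGAAA, which matches on both strands and begins at position -45 from the start, and a single match each to the MAF and NFAT letters, with no PU.1 or AP-1 match. The C1qb window held a MAF match at position -131 and a PU.1 match at -30 and none of the other letters. Among 32536 upstream windows of the same length in the RefSeq table, 36.8% held the C/EBP letters, 23.4% PU.1, 18.6% NFAT, 16.1% MAF and 6.7% AP-1, so a match to any of them is common and is given as a description only. Of the 7 members, 6 matched an entry of that table, and C1qa did not.

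The C1q chains were the most highly expressed members in macrophages and fell most with RANKL. C1qa, C1qb and C1qc lie side by side on mouse chromosome 4 (GRCm38; chr4:136895917-136898803, chr4:136880129-136886187 and chr4:136889804-136893065), all protein-coding on the minus strand. In Bap1flox BMMs C1qb stood at 2073, 2546 and 2502 CPM, scaled by TMM factors so that libraries can be compared. In Bap1flox preOCs it ranged from 229 to 440 CPM with a median of 360. All preOC libraries lay far below all BMM libraries. On replicates 1 to 3, which have both stages, C1qb fell by 2.71 on the log2 scale (SE 0.10, edgeR adjusted p = 4.38e-06), to 0.153 of its BMM level (95% interval 0.129 to 0.181). C1qc fell by 2.74 (SE 0.09, adjusted p = 2.77e-06) and C1qa by 2.37 (SE 0.20, adjusted p = 7.02e-05). Of the 11 macrophage markers 10 also fell and 1 rose, against 32.9% and 31.7% of all genes. Their median log2 difference was -1.62, and without Lyz2 they summed to 10692 to 12772 CPM in Bap1flox BMMs and 3463 to 4414 CPM in preOCs. Neutrophil markers summed to 240 to 294 CPM in these BMMs and 91.6 to 246 CPM in the preOCs, with 1 of 9 tested lower. B and plasma markers summed to 6.32 to 7.71 and 1.98 to 3.92 CPM, and the 1 tested was lower. The part of these markers in the fall of C1q was not tested. Bulk RNA cannot tell apart fewer cells that express a gene from less RNA per cell.

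Cfp and the receptor genes also fell with RANKL in Bap1flox cultures, by less. Cfp (chrX:20925454-20931555) stood at 879, 887 and 888.1 CPM in Bap1flox BMMs and at 598, 476 and 486 CPM in preOCs 1 to 3, a fall of 0.78 on the log2 scale (SE 0.10, edgeR adjusted p = 0.000426). C3ar1 (chr6:122847138-122856161) went from 651, 673 and 658 CPM to 418, 360 and 372 CPM, a fall of 0.80 (SE 0.07, adjusted p = 0.000106). C5ar1 (chr7:16246743-16259540) went from 511, 521 and 490 CPM to 466, 281 and 278 CPM, a fall of 0.58 (SE 0.20, adjusted p = 0.0380). For C5ar1 the preOC library numbered 1 lay close to the BMM libraries and apart from the others, though still below all 3 BMM libraries. Without that preOC library the fall was 0.87 (adjusted p = 0.000119), and the call was lost without any of the other 5 libraries (adjusted p 0.0634 to 0.122). Osteoclast markers summed to 6599 CPM in Bap1flox OC 1 and to 10329 to 14025 CPM in the other Bap1flox preOCs, and to 6065 CPM in the library labelled Bap1LysM OC 1 against 13580 to 16378 CPM in the other Bap1LysM preOCs; their part in these values was not tested.

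C3 was the only member that rose. In Bap1flox BMMs C3 (chr17:57203970-57228136, minus strand) stood at 85.2, 56.3 and 66.1 CPM. In preOCs 1 to 3 it stood at 550, 477 and 567 CPM, and in preOCs 4 to 6 at 337, 411 and 557 CPM. No preOC library came near a BMM library. C3 rose by 2.93 on the log2 scale (SE 0.16, edgeR adjusted p = 1.31e-05), or 7.63-fold (95% interval 5.87 to 9.91). Thus 1 member rose and 6 fell, all 7 past an adjusted p of 0.05 with C5ar1 the least firmly, but 64.6% of all 13415 genes tested passed that threshold, 31.7% higher and 32.9% lower, and 71.3% had stages that did not overlap, so the number of members called is read against a background in which most genes moved. The microRNA gene Mir6978 lies within C3 on the same strand, and reads shared by both were not counted.

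**Figure D1:**
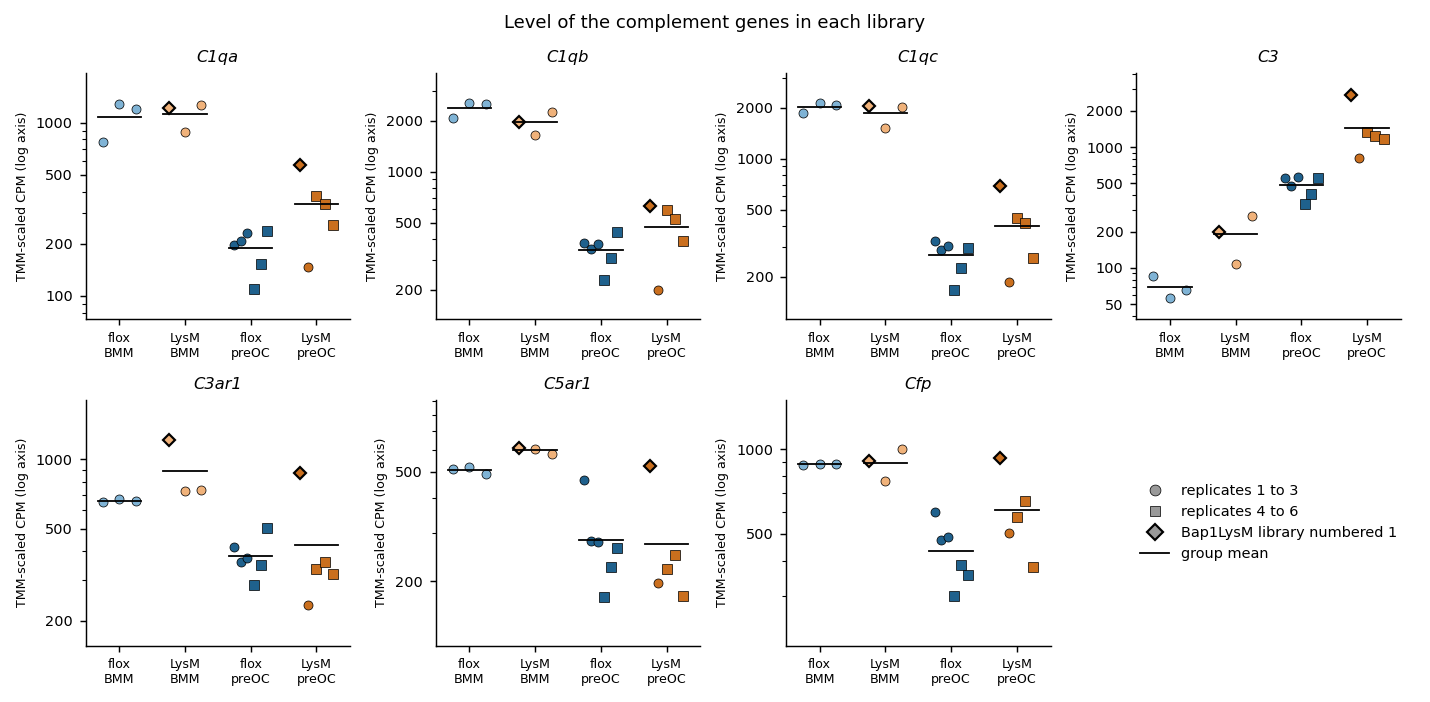
TMM-scaled CPM of each member (log axis) in each library, by group; lines are group means, squares are replicates 4 to 6 and outlined diamonds the Bap1LysM libraries numbered 1. C3 climbs from a mean of 69.2 CPM in Bap1flox BMMs to 1450 CPM in Bap1LysM preOCs, while the C1q chains drop in preOCs of both genotypes.

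In Bap1LysM cultures the same contrast rested on 3 BMM and 2 preOC libraries, which differ widely from each other. C3 stood at 198, 107 and 268 CPM in BMMs and at 2723 and 810 CPM in preOCs 1 and 2. Both preOC libraries lay above the BMM libraries, and C3 rose by 3.21 on the log2 scale (SE 0.60, edgeR adjusted p = 0.0221). C1qb stood at 1973, 1638 and 2259 CPM in BMMs and at 627 and 200 CPM in the preOCs, a fall of 2.24 (SE 0.51, adjusted p = 0.0349). These were the 2 members called, against 19.6% of the 12998 genes tested, 11.4% higher and 8.2% lower. The stages did not overlap for 5 of 7 members, against 56.1% of genes. C1qc fell short of the threshold at -2.09 (SE 0.56, adjusted p = 0.0506), as did C1qa at -1.64 (SE 0.57, adjusted p = 0.0946). C5ar1 was at -0.73, C3ar1 at -0.69 and Cfp at -0.31, with adjusted p of 0.233, 0.418 and 0.482. Without both libraries labelled 1, which leaves a single preOC library whose spread is taken from the BMMs, all 7 members were called, against 32.6% of genes in that fit, with C1qc at -3.22 and C3 at 2.13. Without Bap1LysM OC 2, which likewise leaves a single preOC library, C3 at 3.84 and C1qb at -1.64 were called, against 4.37% of genes, while C1qa was at -0.96, C5ar1 at -0.18, C3ar1 at -0.03 and Cfp at 0.07. The size of every member's change thus depended on which preOC library was in the fit. The calls for C3 and C1qb were lost when any single Bap1LysM BMM library was left out (adjusted p 0.0589 to 0.0758 for C3 and 0.0729 to 0.115 for C1qb).

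C3 was higher in Bap1LysM than in Bap1flox preOCs. The controls carry no Cre, so the deletion and the Cre insertion at Lyz2 cannot be told apart in any comparison of genotypes. Bap1flox preOCs ranged from 337 to 567 CPM with a median of 514, and the Bap1LysM preOCs 1, 2, 4, 5 and 6 stood at 2723, 810, 1323, 1233 and 1160 CPM. Every Bap1LysM library lay above every Bap1flox library, and the library labelled Bap1LysM OC 1 lay highest. C3 rose by 1.55 on the log2 scale (SE 0.28, edgeR adjusted p = 0.00403), or 2.93-fold (95% interval 1.93 to 4.46). It was the only one of the 7 members called, against 15.8% of 12929 genes tested, 7.12% higher and 8.68% lower, and the only one whose genotypes did not overlap, against 9.46% of genes. Without the library labelled Bap1LysM OC 1 the difference was 1.18 (adjusted p = 0.000996), and once the library set was fitted too it was 1.58 (adjusted p = 0.000884). Blocked on replicate number it was 1.51 (adjusted p = 0.00365), in a fit that called 4236 genes in place of 2043. Within replicates 4 to 6 it was 1.47 (adjusted p = 0.000454), and within replicates 1 to 3, where 3 libraries met 2 and no gene of 13129 passed, it was 1.73 (adjusted p = 0.201).

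The C1q chains lay higher on average in Bap1LysM preOCs but overlapped with Bap1flox. C1qa ranged from 110 to 237 CPM with a median of 202 in Bap1flox preOCs and stood at 573, 147, 378, 340 and 257 CPM in Bap1LysM preOCs 1, 2, 4, 5 and 6. Bap1LysM OC 2 lay inside the Bap1flox range and the other libraries above it. The log2 difference was 0.81 (SE 0.30, edgeR adjusted p = 0.0935). Within replicates 4 to 6, where the genotypes did not overlap and 33.8% of genes passed, it was 0.93 (adjusted p = 0.0227). Within replicates 1 to 3 it was 0.76 (adjusted p = 0.484), once the library set was fitted too 0.85 (adjusted p = 0.0457), in a fit that called 33.6% of genes, and without the library labelled Bap1LysM OC 1 it was 0.52 (adjusted p = 0.182).

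C1qb stood at 627, 200, 594, 524 and 391 CPM in Bap1LysM preOCs 1, 2, 4, 5 and 6, with the lowest below the whole Bap1flox range. Its log2 difference was 0.40 (SE 0.26, edgeR adjusted p = 0.330), with 0.17 (adjusted p = 0.869) within replicates 1 to 3 and 0.59 (adjusted p = 0.0794) within replicates 4 to 6. C1qc stood at 691, 187, 444, 414 and 261 CPM against 168 to 326 CPM, a difference of 0.54 (SE 0.30, adjusted p = 0.246), with 0.51 (adjusted p = 0.63) and 0.65 (adjusted p = 0.0594) within the library sets. The library labelled Bap1LysM OC 1 was highest and Bap1LysM OC 2 lowest of their group for all 3 chains. Without the former, C1qb was at 0.25 (adjusted p = 0.502) and C1qc at 0.23 (adjusted p = 0.526). Without Bap1LysM OC 2, C1qa at 1.02 (adjusted p = 0.0180) and C1qb at 0.61 (adjusted p = 0.0382) passed the test. With limma's voomWithQualityWeights, the study's own tool, which gives uneven libraries less weight, C1qa at 0.87 (adjusted p = 0.00329), C1qb at 0.59 (adjusted p = 0.0124) and C1qc at 0.58 (adjusted p = 0.0231) passed, in a fit that called 54.9% of all genes. With DESeq2, which called 22.5%, C1qa alone of the 3 passed (0.83, adjusted p = 0.0321).

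Cfp, C3ar1 and C5ar1 did not pass the test between genotypes in preOCs. Cfp stood at 933, 505, 574, 652 and 382 CPM in Bap1LysM preOCs 1, 2, 4, 5 and 6 and at 301 to 598 CPM in Bap1flox preOCs, a log2 difference of 0.46 (SE 0.23, edgeR adjusted p = 0.214). Within replicates 4 to 6 it was 0.58 (adjusted p = 0.0386), within replicates 1 to 3 it was 0.46 (adjusted p = 0.432), 0.52 once the library set was fitted too (adjusted p = 0.0358) and, blocked on replicate number, 0.47 (adjusted p = 0.0379). The library labelled Bap1LysM OC 1 again lay highest, and without it the difference was 0.24 (adjusted p = 0.421).

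C3ar1 stood at 873, 234, 337, 358 and 317 CPM in Bap1LysM preOCs and at 285 to 502 CPM in Bap1flox preOCs, a difference of 0.13 (SE 0.30, adjusted p = 0.806, edgeR). Its 95% interval of -0.53 to 0.78 spans a fall and a rise, and without the library labelled Bap1LysM OC 1 the value was -0.34 (adjusted p = 0.147), so its sign depended on that library. C5ar1 stood at 524, 198, 221, 250 and 176 CPM against 175 to 466 CPM, a difference of -0.07 (SE 0.31, adjusted p = 0.898), and of -0.46 (adjusted p = 0.176) without that library. For both receptors the library sets gave values of opposite sign, 0.52 and -0.21 for C3ar1 and 0.07 and -0.08 for C5ar1, in replicates 1 to 3 and 4 to 6. No member's genotype difference was called different between the library sets by the interaction term (edgeR adjusted p 0.722 to 0.960), which called 0% of 13420 genes, while 1239 (9.23%) had an unadjusted p under 0.05 and DESeq2 called 100. Without Bap1LysM OC 2, C3ar1 was called at -1.38 (adjusted p = 0.022), against 6.95% of genes, and the terms of all 7 members were below 0. Without the library labelled Bap1LysM OC 1 all 7 were above 0, from 0.53 for C3ar1 to 1.47 for C1qb, none of them called. Each of these fits leaves a single Bap1LysM preOC library in replicates 1 to 3, which is assumed to vary like the other groups.

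**Figure D2:**
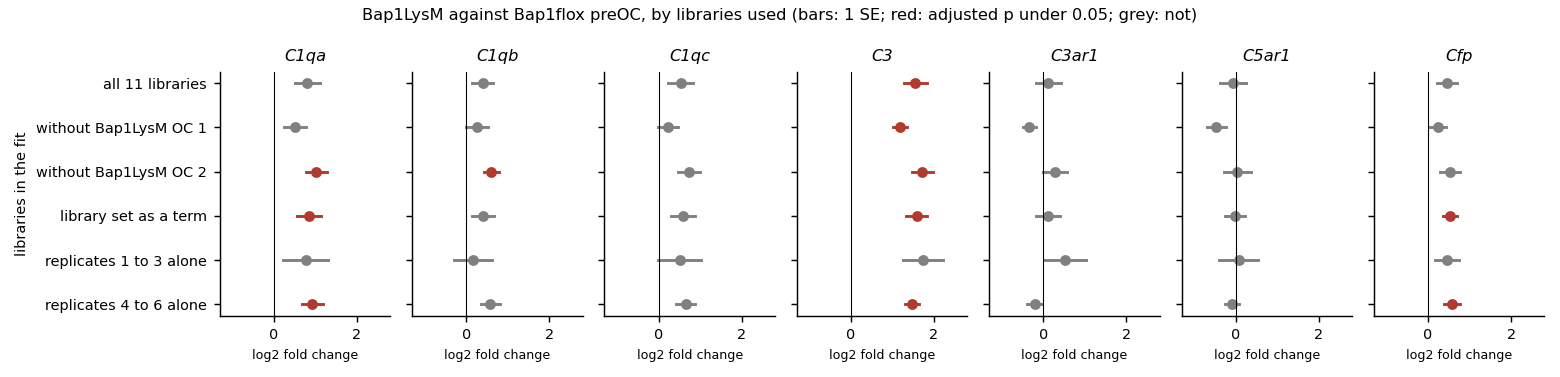
Log2 fold change of Bap1LysM against Bap1flox preOCs for each member, by the libraries in the fit; bars are 1 SE, red marks an adjusted p under 0.05 and grey the rest. C3 lies between 1.18 and 1.73 in all 6 fits, while C3ar1 moves from 0.13 to -0.34 when the library labelled Bap1LysM OC 1 is left out.

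Without RANKL, C3 again lay higher in Bap1LysM than in Bap1flox, at a lower level. The Bap1LysM BMMs stood at 198, 107 and 268 CPM and the Bap1flox BMMs at 85.2, 56.3 and 66.1 CPM, with no overlap. The log2 difference was 1.45 (SE 0.33, 95% interval 0.67 to 2.23), or 2.73-fold, and its edgeR adjusted p of 0.0548 missed the threshold. Blocked on replicate number it was 1.37 (adjusted p = 0.0157), in a fit that called 2107 genes in place of 693, and without the library labelled Bap1LysM BMM 1 it was 1.42 (adjusted p = 0.106). Leaving out each of the other 5 libraries gave 1.13 to 1.75, past the threshold only without Bap1LysM BMM 2 (adjusted p = 0.0459), and voomWithQualityWeights called it at 1.42 (adjusted p = 0.0224), with 13.6% of genes. None of the 7 members was called in BMMs by edgeR, against 5.32% of 13028 genes, 1.31% higher and 4.01% lower. In that fit 2 had an unadjusted p under 0.05, against 26.2% of genes. DESeq2 called 2, C3 and C5ar1, against 15.9% of genes.

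C5ar1 stood at 609, 602 and 580 CPM in Bap1LysM BMMs, all above the 490 to 521 CPM of Bap1flox, a log2 difference of 0.22 (SE 0.07, edgeR adjusted p = 0.117). C3ar1 stood at 1207, 730 and 737 CPM against 651 to 673 CPM, a difference of 0.42 (SE 0.20, adjusted p = 0.238), which came to 0.14 (adjusted p = 0.318) without the library labelled Bap1LysM BMM 1. So the genotypes did not overlap for C3, C3ar1 and C5ar1, 3 of 7 members, against 34% of all genes. C1qa was at 0.03 (adjusted p = 0.949), C1qb at -0.29 (adjusted p = 0.268), C1qc at -0.14 (adjusted p = 0.558) and Cfp at 0.00 (adjusted p = 0.999). The interval of Cfp, -0.26 to 0.26, bounds any difference more tightly than that of C1qa, -0.52 to 0.57.

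With all libraries of replicates 1 to 3, the genotype difference was not called different between preOCs and BMMs for any member. The interaction term of C3 was 0.27 (SE 0.63, edgeR adjusted p = 0.896), with a 95% interval of -1.13 to 1.66, so a change of its genotype difference by RANKL in either direction remained within the error. C1qa was at 0.73 (SE 0.60), C1qc at 0.64 (SE 0.53), C1qb at 0.46 (SE 0.48) and Cfp at 0.45 (SE 0.30), with adjusted p from 0.553 to 0.723. C3ar1 was at 0.10 and C5ar1 at -0.16 (adjusted p 0.969 and 0.924). This term called 0% of 13637 genes with edgeR, although 1718 (12.6%) had an unadjusted p under 0.05 and DESeq2 called 117. Without the library labelled Bap1LysM OC 1 the terms of all 7 members were below 0, from -1.14 for C3ar1 to -0.05 for Cfp, none of them called. Without Bap1LysM OC 2 all 7 were above 0, from 0.38 for C5ar1 to 1.395 for C1qa, and C1qc was called at 1.29 (adjusted p = 0.0404), with 0.878% of genes. Both fits leave a single Bap1LysM preOC library, which is assumed to vary like the other groups. The sign of these terms thus depended on which of the 2 Bap1LysM preOC libraries was in the fit.

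**Figure D3:**
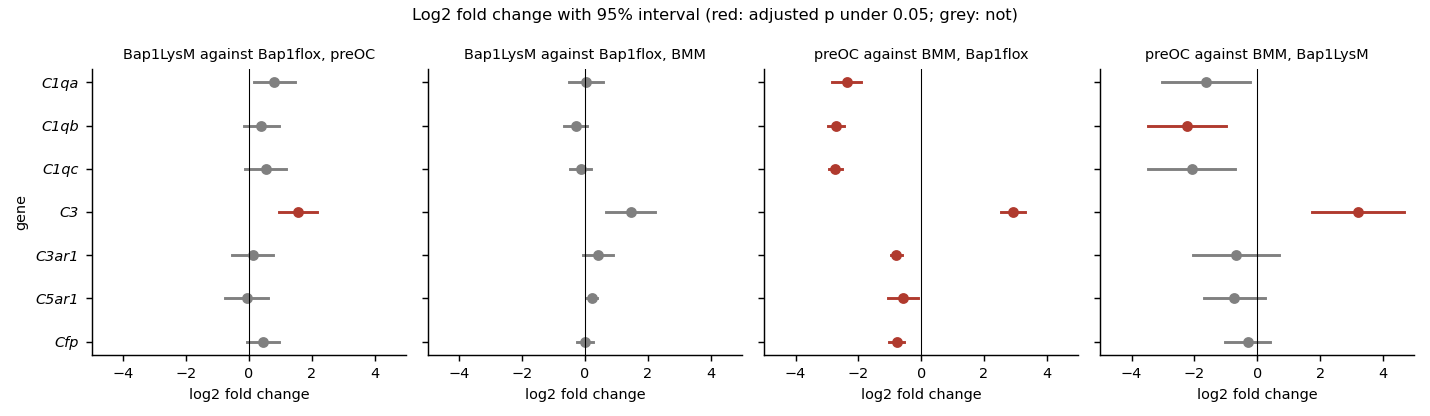
Log2 fold change and 95% interval of each member in the 4 contrasts, red where the adjusted p is under 0.05 and grey elsewhere. All 7 members are red for RANKL in Bap1flox cultures, C3 and C1qb in Bap1LysM cultures, C3 for genotype in preOCs and none in BMMs.

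Set in order by mean CPM, C3 was the only member whose 4 groups did not overlap with their neighbours, with 1450 CPM in Bap1LysM preOCs, 483 in Bap1flox preOCs, 191 in Bap1LysM BMMs and 69.2 in Bap1flox BMMs. How many of all genes part in this way was not counted. Between single pairs of groups, 71.3% of genes did not overlap for RANKL in Bap1flox, 34% for genotype in BMMs and 9.46% for genotype in preOCs. For C1qa, C1qb and C1qc both BMM groups lay above both preOC groups without overlap, and within each stage the genotypes overlapped. For C5ar1 the order was Bap1LysM BMM, Bap1flox BMM, Bap1flox preOC and Bap1LysM preOC. The preOC groups overlapped, and the library labelled Bap1LysM OC 1, at 524 CPM, also lay above every Bap1flox BMM library. For C3ar1 and Cfp the library labelled Bap1LysM OC 1 lay above every Bap1flox BMM library. The C3ar1 of Bap1LysM BMMs stood clear of the next group in order, Bap1flox BMMs. It did not stand clear of the library labelled Bap1LysM OC 1, at 873 CPM against 730 and 737 CPM in Bap1LysM BMMs 2 and 3. No group stood clear of the next for Cfp, where BMMs also overlapped, at 772 to 1001 CPM in Bap1LysM and 879 to 888 CPM in Bap1flox.

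Compared per length, as CPM per kb of the gene, C1qb led in all 4 groups, at 2182 in Bap1flox BMMs and 318 in Bap1flox preOCs. C3 was the lowest member per kb in Bap1flox BMMs at 13.5, next to 153 for C3ar1, the next one up. In Bap1LysM preOCs it reached 282 per kb and stood below C1qb, C1qa and Cfp, with C1qa at 326 and Cfp at 351, and above C1qc at 207. All 7 members together took a median of 0.774% of the counts in Bap1flox BMMs, 0.743% in Bap1LysM BMMs, 0.269% in Bap1flox preOCs and 0.356% in Bap1LysM preOCs. In the library labelled Bap1LysM OC 1 they took 0.678%.

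**Figure D4:**
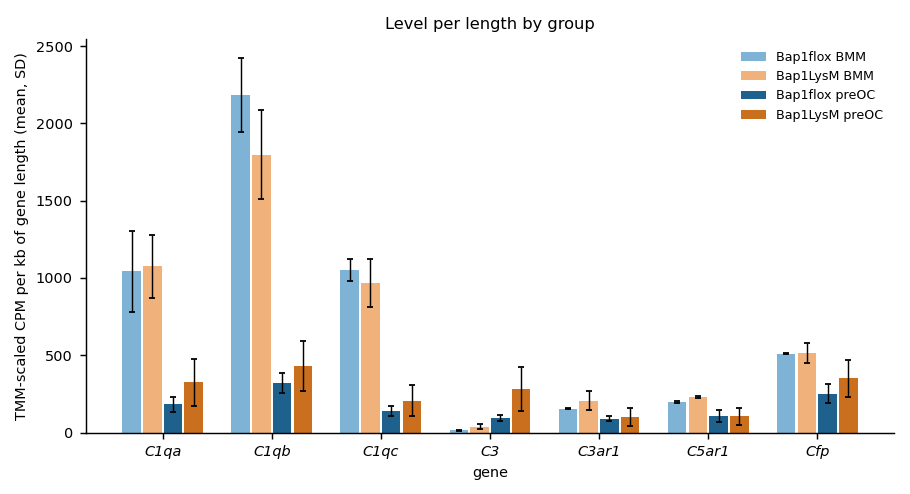
Mean TMM-scaled CPM per kb of gene length for each member and group, with SD over libraries (n = 3, 3, 6 and 5). The C1q chains tower over the other members in BMMs, with C1qb at 2182 in Bap1flox, and C3 goes from 13.5 to 282 across the groups.

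The C1q chains assemble into the same protein, and their ratio per length was examined after the values were seen, so it carries no test. C1qb over C1qa was 1.55 to 2.00 in Bap1flox preOCs (mean 1.78, SD 0.18, n = 6) and 1.05 to 1.503 in Bap1LysM preOCs (mean 1.36, SD 0.19, n = 5). In BMMs it was 1.89 to 2.57 in Bap1flox and 1.56 to 1.78 in Bap1LysM (n = 3 each). The ratio was thus lower in every Bap1LysM library than in every Bap1flox library of the same stage, with and without the libraries labelled 1. C1qc over C1qb overlapped between genotypes at both preOC (0.380 to 0.488 against 0.375 to 0.620) and BMM stages (0.469 to 0.510 against 0.505 to 0.586). C1qc over C1qa also overlapped in preOCs (0.674 to 0.898 against 0.546 to 0.685) and in BMMs (0.893 to 1.31 against 0.862 to 0.933). How often the ratio of other gene pairs parts by genotype was not counted.

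Across the 17 libraries the C1q chains followed each other closely, with Pearson r of log2 CPM from 0.98 to 0.99, and from 0.92 to 0.95 once each group's mean was removed. C3 ran against them over all libraries, from -0.71 with C1qb to -0.57 with C1qa, but with them within groups, from 0.72 with C1qb to 0.82 with C1qc. C5ar1 and Cfp were at 0.88 overall and 0.90 within groups. These points share libraries, stages and library sets, and are a description only. The library labelled Bap1LysM OC 1 was the highest of its group for every member, and its part in these values was not tested. Of 13810 genes, those most like C1qb were C1qc, Man1c1 and Irf8 (r 0.992, 0.991 and 0.990), and those most like C1qc were C1qb, Tpra1 and Abhd12 (0.992, 0.991 and 0.990). C1qa was nearest to C1qc, Sash1 and 9830107B12Rik (0.982, 0.979 and 0.977). C3 was nearest to Dhx33, Icam1 and Cyba (0.964, 0.950 and 0.948), of which Icam1 encodes an adhesion molecule and Cyba a subunit of the phagocyte oxidase. C3ar1 was nearest to C5ar2, the other C5a receptor gene, Xdh and Sumf1 (0.971, 0.970 and 0.966). C5ar1 was nearest to Metrnl, Ifi27l2a and Keap1 (0.98, 0.98 and 0.97), and Cfp to Rnf135, Atf5 and Lst1 (0.977, 0.976 and 0.972).

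Of 52 other complement genes listed, 20 were expressed enough to test in preOCs, where 3 were higher and 2 lower in Bap1LysM, against 7.12% and 8.68% of all genes, with a median log2 difference of 0.12 against -0.01 for all genes. Of 6 regulators tested, 2 were higher, 1 was lower and 3 did not pass. Cd55, decay-accelerating factor, which breaks up C3 convertases, ranged from 2.93 to 4.82 CPM in Bap1flox preOCs and stood at 15.3, 7.88, 23.8, 25.9 and 25.9 CPM in Bap1LysM preOCs 1, 2, 4, 5 and 6. It was higher in every Bap1LysM library, by 2.42 on the log2 scale (SE 0.27, edgeR adjusted p = 0.00047), or 5.35-fold, and by 2.49 (adjusted p = 0.000267) without the library labelled Bap1LysM OC 1. Cd59a, which blocks the membrane attack complex, ranged from 20.1 to 31.7 CPM and stood at 6.72, 13.9, 18.9, 13.1 and 15.2 CPM in Bap1LysM, lower in every library, a fall of 0.91 (SE 0.22, adjusted p = 0.0170), or of 0.74 (adjusted p = 0.00708) without that library. Its paralog Cd59b could share some reads with it, which unique counting leaves out.

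Clu, clusterin, an inhibitor of the terminal complex, ranged from 0.200 to 1.84 CPM in Bap1flox preOCs. In Bap1LysM preOCs 2, 4, 5 and 6 it stood at 24.8, 71.3, 63.8 and 46.1 CPM, but in the library labelled Bap1LysM OC 1 it stood at 1.68 CPM, within the Bap1flox range. The log2 difference was 5.03 (SE 0.76, edgeR adjusted p = 0.00178), and 5.34 (adjusted p = 8.59e-05) without that library. C1ra, a protease of the C1 complex with the paralog C1rb, ranged from 3.88 to 6.43 CPM in Bap1flox and stood at 4.77, 2.04, 1.17, 1.16 and 1.03 CPM in Bap1LysM, a fall of 1.41 (SE 0.40, adjusted p = 0.0347), or of 2.02 (adjusted p = 0.000513) without the library labelled Bap1LysM OC 1. Fcnb, a ficolin of the lectin pathway, stood at 1.92, 1.03, 8.33, 6.04 and 7.29 CPM against 0.599 to 2.63 CPM, a difference of 1.58 (SE 0.50, adjusted p = 0.0498), or of 1.78 (adjusted p = 0.0231) without that library. For Fcnb only the libraries of replicates 4 to 6 stood above the Bap1flox range, with 0.31 (adjusted p = 0.776) within replicates 1 to 3 and 1.80 (adjusted p = 0.000529) within replicates 4 to 6. The calls for C1ra and Fcnb were lost when most single libraries were left out (adjusted p up to 0.0921 and 0.144).

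**Figure D5:**
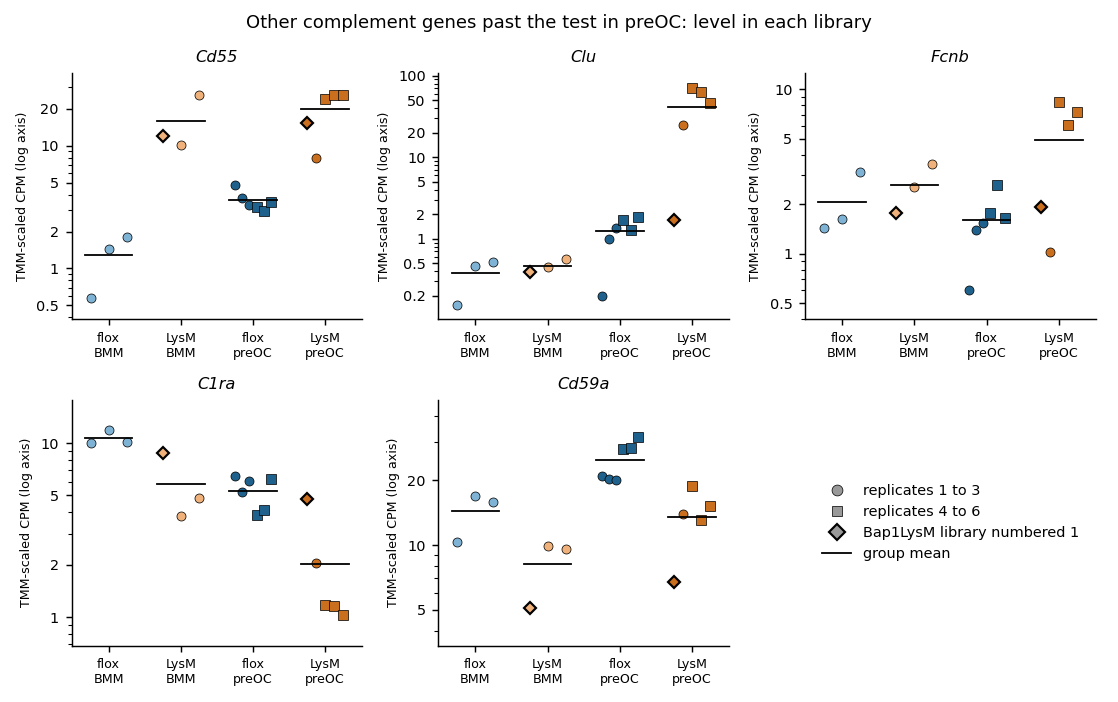
TMM-scaled CPM (log axis) in each library of the 5 other complement genes called between genotypes in preOCs; symbols as in the plot of the members. Cd55 lies higher and Cd59a lower in every Bap1LysM preOC library, while Clu in the library labelled Bap1LysM OC 1 lies among the Bap1flox libraries at 1.68 CPM.

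In BMMs 22 of these genes were tested and Cd55 alone was called, against 5.32% of all genes, at 11.9, 10.1 and 25.8 CPM in Bap1LysM against 0.578, 1.45 and 1.81 CPM in Bap1flox, a log2 difference of 3.62 (SE 0.54, edgeR adjusted p = 0.0221). The call was lost without Bap1flox BMM 2 or 3 or Bap1LysM BMM 2 (adjusted p 0.0594 to 0.0934). In those fits the difference was 3.72, 3.97 and 3.87, with 0 of these genes called, against 0.0545%, 0.0311% and 0.649% of all genes. DESeq2 called 4 of these genes, voomWithQualityWeights 5 and the replicate block 3, against 15.9%, 13.6% and 16.2% of all genes. Without Bap1LysM BMM 1, 3 were called, against 2.84%. With RANKL in Bap1flox cultures 5 of 23 rose and 9 fell, against 31.7% and 32.9% of all genes, so the share called was close to that of genes in general. Cd93, a receptor once linked to C1q, fell by 2.23 on the log2 scale (SE 0.11, adjusted p = 9.09e-06), and Colec12, a collectin, by 2.03 (SE 0.23, adjusted p = 0.000263). C4b fell by 2.02 (SE 0.43, adjusted p = 0.00497), with reads that its paralog C4a could share, and C5ar2 by 1.16 (SE 0.16, adjusted p = 0.00062). Itgam, C1ra, Lrp1 and C8g also fell.

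Of those that rose, Susd4 had 1, 0 and 0 reads in Bap1flox BMMs and 63, 54 and 26 in preOCs 1 to 3, so no fold is given. Cd55 rose by 1.62 (SE 0.41, edgeR adjusted p = 0.0105), Itgax, the alpha chain of complement receptor 4, by 1.10 (SE 0.21, adjusted p = 0.00277), Calr, calreticulin, a C1q receptor, by 0.54 (SE 0.08, adjusted p = 0.000711) and Cd59a by 0.50 (SE 0.18, adjusted p = 0.0460). In Bap1LysM cultures 1 of 23 rose, Clu, and 5 fell, among them Colec12, Vsig4, Cd93 and Lrp1, against 11.4% and 8.2% of all genes. The number called was 3 without Bap1LysM BMM 1, against 8.99% of all genes, and 0 without Bap1LysM BMM 2 or 3, against 0.49% and 1.28%. Leaving out any of these 3 libraries lost the call for Clu (edgeR adjusted p 0.0838 to 0.118), at 4.71 to 4.98 on the log2 scale. Factors B and D of the alternative pathway, Cfb and Cfd, did not pass the filter on low counts in any comparison, so of that pathway the data measured C3, properdin and the regulators.

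Markers of other cell types moved with genotype in preOCs. Of 10 neutrophil markers 9 were tested and 6 were higher in Bap1LysM, against 7.12% of all genes, and their summed level was 91.6 to 246 CPM in Bap1flox and 185 to 645 CPM in Bap1LysM preOCs. In Bap1LysM preOCs 1 and 2 that sum was 191 and 185 CPM, within the range of all Bap1flox preOCs but above Bap1flox preOCs 1 to 3, at 91.6, 146 and 181 CPM. In BMMs 0 of 9 neutrophil markers were called, with sums of 240 to 294 CPM in Bap1flox and 264 to 356 CPM in Bap1LysM. None of the neutrophil markers was at 0 in any group. Of 11 macrophage markers 2, Csf1r and Mertk, were higher in Bap1LysM preOCs, and the sum of the 10 without Lyz2 was 3463 to 4414 CPM in Bap1flox and 3501 to 5623 CPM in Bap1LysM. The dendritic list summed to 2.98 to 5.17 and 5.48 to 11.8 CPM, with both tested markers higher, and the B and plasma list to 1.98 to 3.92 and 6.11 to 10.2 CPM, with 1 of 2 higher. Stromal markers summed to 180.0 to 1930 and 101 to 1252 CPM with 0 of 7 called, and erythroid and mast markers had none to test. The part of these cells in the values of the complement genes was not tested.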

How the data were processed

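RNA-seq was read from 17 deposited tables, 1 per library. According to the study's methods and the submitters' processing notes, the authors sequenced poly-A RNA in paired ends, aligned it with STAR 2.5.1a to GRCm38 with Ensembl release 76, and used featureCounts 1.4.6-p5 to count reads that aligned once and fell in a single gene. Use of strand in counting is not given in the sources used here. The tables hold the authors' raw counts, and the deposited CPM and RPKM were derived from them by the authors; only counts were tested. The 355 ribosomal RNA genes were left out, and genes needed more than 1 CPM in at least 4 preOC libraries or 2 libraries elsewhere.

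The main test was edgeR 4.0.16 (R 4.3.3), its quasi-likelihood test with TMM factors and Benjamini-Hochberg adjustment over all genes tested, on the libraries of each comparison alone. RANKL contrasts used replicates 1 to 3. Printed levels are CPM with TMM factors over all 17 libraries, intervals are 95%, and correlations used log2 CPM with a prior count of 2. Alternatives were DESeq2 1.42.0, limma 3.58.1, other factors and filters, leaving out each library, the library sets and the replicate number as a block. Same-numbered libraries deviated together in preOCs (r 0.34 to 0.69), BMMs (0.30 to 0.49) and RANKL in Bap1flox (0.22 to 0.36), which is where the pairing comes from; with each library set's mean removed the preOC values were -0.14 to 0.40. No 2 libraries agreed within sampling noise.

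Named were all members, Bap1 and Lyz2, other complement genes past an adjusted p of 0.05 (for RANKL in Bap1flox the 5 of largest change each way; the rest and those in Bap1LysM were named after their values were seen), and the 3 genes most correlated with each member. The members and lists were chosen with earlier results of these data known. The values of 1 gene that this rule names are not reported here.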

Additional observations from a re-analysis of the deposited data

Results flagged for a closer look

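Among 50 combinations of a named gene and a preOC genotype, 9 had a library set apart from the rest of its group by Dixon's gap test, which chance gives in about 1 in 20. Of these, 7 were the library labelled Bap1LysM OC 1 as the highest of 5. C3 there was 2723 CPM, with the next library at 1323. C3ar1 was 873 CPM (next 358), C5ar1 524 (next 249.8) and C5ar2 17.2 (next 7.54). C1ra was 4.77 CPM (next 2.04), C4b 1.88 (next 0.393) and Lyz2 6883 (next 41.4).

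C5ar1 in Bap1flox OC 1 was 466 CPM, with the next library at 281. Cd93 in Bap1LysM OC 2 was the lowest of 5 at 121.7 CPM, with the next at 314.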

How the results depend on the processing

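Over 714 refits of the members, 606 kept direction and side of the threshold, 41 gained a call, 12 lost one and 55 changed sign, none of the 55 in a member called by edgeR in the comparison reported; the cause was not tested.

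Genes called between genotypes in preOCs (2043) numbered 7099 with voomWithQualityWeights, 4349 with the library set as a term, 5098 with that term and without Bap1LysM OC 1 (chosen after seeing the data), 0 in replicates 1 to 3, 4304 in replicates 4 to 6 and 1117 to 3112 leaving out each library. Members called (1) numbered 2 with DESeq2, 4 with voomWithQualityWeights, 3 with the set term, 0 and 3 within the sets, 2 in a fit of all 17 libraries and 1 to 3 leaving out each library. In BMMs the genes (693) numbered 2065 with DESeq2, 1772 with voomWithQualityWeights and 4 to 756 leaving out each library, and the members (0) 2, 1 and 0 to 1, and 1 with no filter or all libraries. RANKL in Bap1flox gave 7578 to 9169 genes and 6 to 7 members leaving out each library, 7 only without Bap1flox OC 1. RANKL in Bap1LysM (2550 genes, 2 members) gave 3996 and 4 with DESeq2, 1667 genes with voomWithQualityWeights, 4 members with no filter, 4112 and 7 without both libraries numbered 1, 5113 and 5 with all Bap1LysM libraries, and 63 to 3336 and 0 to 6 leaving out each library. The RANKL interaction (0) gave 117 genes with DESeq2, 288 with all libraries, 0 to 119 genes and 0 to 1 members leaving out each library. The library set interaction (0) gave 100 with DESeq2, 29 with no filter, 0 to 927 genes and 0 to 1 members leaving out each library.

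With the replicate block the genes called were 4236 in preOCs (2 members), 2107 in BMMs (1), 8514 for RANKL in Bap1flox (7), 2750 for RANKL in Bap1LysM (4) and 0 for the interaction; the numbers of Bap1LysM BMM and preOC libraries form 2 pairs only (r 0.48 and 0.34), and the 2 members gained there were C1qc at -2.29 (adjusted p = 0.0169) and C1qa at -1.82 (adjusted p = 0.029). C3ar1 changed sign under the block to -0.022 in preOCs and to -0.27 in the interaction.

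Other values that changed sign were, in preOCs, C3ar1 at -0.12 with voomWithQualityWeights, -0.21 in replicates 4 to 6 and -0.37 with the set term without Bap1LysM OC 1, and C5ar1 at 0.07 in replicates 1 to 3. In BMMs they were Cfp at 0.007 with RLE factors and with DESeq2 and 0.016 with all libraries, and C1qa at -0.013 with upper-quartile factors and -0.16 with voomWithQualityWeights. In the RANKL interaction C3ar1 was -0.074 with voomWithQualityWeights and -0.28 with all libraries, and without both libraries numbered 1 C1qa was -0.51, C1qb -0.58, C1qc -0.52, C3 -0.83, C3ar1 -0.86 and Cfp -0.042. In the set interaction voomWithQualityWeights gave 0.16 for C3 and 0.028 for C5ar1.

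Leaving out each library gave sign changes over these ranges. In preOCs C3ar1 ran from -0.34 to 0.29 and C5ar1 from -0.46 to 0.13, in BMMs C1qa from -0.17 to 0.18 and Cfp from -0.088 to 0.10, and for RANKL in Bap1LysM Cfp from -0.80 to 0.067. In the RANKL interaction C1qa ran from -0.57 to 1.395, C1qb from -0.59 to 1.06, C1qc from -0.59 to 1.29, C3 from -0.86 to 0.89, C3ar1 from -1.14 to 0.75, C5ar1 from -1.02 to 0.38 and Cfp from -0.053 to 0.83. In the set interaction C1qa ran from -0.50 to 1.47, C1qb from -0.18 to 1.47, C1qc from -0.50 to 1.39, C3 from -0.87 to 0.88, C3ar1 from -1.38 to 0.53, C5ar1 from -0.68 to 0.73 and Cfp from -0.25 to 0.65. Depth did not limit the members, while C4b, Fcnb and Susd4 lie near the filter. So do Clu in Bap1flox preOCs, Cd55 in Bap1flox BMMs and C1ra in Bap1LysM preOCs 4 to 6.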
